A study of Mus musculus with 2 samples.

Results

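Interferon-stimulated genes are the genes that a cell switches on when an interferon binds its receptor. A list of 43 of them was followed here by symbol in the CD45+ cells of infarcted neonatal mouse hearts, and 42 of the 43 are among the 32285 genes of the tables (*Mx1* was not analysed here). The list was made with earlier results of these data known, but no measured value enters the rule. The questions were which immune class held the response, whether few cells carried it, and whether it differed between wild-type mice (WT) and mice lacking *Lyve1* (Lyve1 KO), which encodes the hyaluronan receptor LYVE-1 of lymphatic endothelium and resident macrophages. Both libraries came from hearts infarcted on postnatal day 2 and harvested at 9 days of age, 7 days after surgery. Each library pooled 5 hearts, sorted for live (7-AAD-negative) CD45+ cells, so each genotype was 1 sample. The WT mice carried no named allele, and the KO strain is a global *Lyve1*-/- knockout, in which every cell type lacks the gene throughout life. The labels give no uninjured heart, so every value describes injured tissue.

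Type I interferons (the interferon alpha family and interferon beta) and type III interferons act through the kinases JAK1 and TYK2, which activate transcription factors such as STAT2. With IRF9 these form the complex ISGF3, which binds the interferon-stimulated response element in promoters, whereas interferon gamma acts mainly on the gamma-activated sequence. The products bind viral RNA (the IFIT and OAS proteins), attach or remove the ubiquitin-like ISG15, sense nucleic acids, or attack the vacuoles of intracellular microbes (the guanylate-binding proteins and immunity-related GTPases). After myocardial infarction, nucleic acids from dying cells are known to trigger such genes in heart macrophages.

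Promoter sequences were available for 35 of the 43 members (41 promoters, RefSeq, GRCm38.p6), each running from 250 bases before the gene start to 50 after. None was held for *Mx1*, *Usp18*, *Dhx58*, *Zbp1*, *Ifi204*, *Ifi27l2a*, *Parp14* and *Rtp4*. The core of the interferon-stimulated response element was searched as GAAANNGAAA on both strands, and the core of the gamma-activated sequence as TTCNNNGAA, which reads the same on both strands. The response element core was present for 22 of the 35 members (62.9%) against 3.99% of all 27025 genes with a promoter, and the gamma-activated core for 7 (20%) against 9.55%. Either one was present for 24 members (68.6%, against 12.9% of genes), and in 1 member promoter the matches of both overlapped. Of the 9 core genes (defined below) with a promoter, 5 (*Ifit1*, *Ifit3*, *Ifit3b*, *Isg15* and *Rsad2*) held the response element core, *Ifit2* held the gamma-activated core alone, and *Oasl1*, *Cmpk2* and *Ifi44* held neither. Outside the core, *Irf7*, *Ifi209*, *Oasl2* and *Lgals3bp* were among the members with neither, which says only that these letters were not in this window. The stretches around the matches are shown for 11 members as examples, to show that the matched letters take different forms and positions in genes measured in the same cells. Capitals mark the matched bases (a match on the other strand reads as its reverse complement), and sequences run 5′ to 3′ on the strand of the gene.
Isg15: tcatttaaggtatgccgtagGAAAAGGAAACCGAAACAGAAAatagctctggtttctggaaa
Ifit1: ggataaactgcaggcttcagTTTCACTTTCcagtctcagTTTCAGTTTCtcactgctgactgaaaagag
Ifit3: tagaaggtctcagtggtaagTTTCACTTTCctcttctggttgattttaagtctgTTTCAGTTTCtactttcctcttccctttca
Ifit3b: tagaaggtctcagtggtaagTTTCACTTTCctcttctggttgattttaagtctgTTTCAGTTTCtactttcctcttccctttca
Rsad2: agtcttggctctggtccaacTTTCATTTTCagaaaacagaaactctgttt
Bst2: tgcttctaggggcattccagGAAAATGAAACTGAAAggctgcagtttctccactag
Irgm1: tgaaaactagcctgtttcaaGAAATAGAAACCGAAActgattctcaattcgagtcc
Oas1a: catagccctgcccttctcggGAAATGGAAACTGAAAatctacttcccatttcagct
Gbp2: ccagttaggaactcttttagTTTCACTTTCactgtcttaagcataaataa
Ifi203: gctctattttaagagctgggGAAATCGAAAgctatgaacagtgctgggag
Ifi211: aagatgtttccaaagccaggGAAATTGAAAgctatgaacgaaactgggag
These 11 sequences lie on the named chromosome of GRCm38.p6. The effectors and ISGylation genes are *Isg15* at chr4:156200855-156200916 (minus strand), *Ifit1* at chr19:34640765-34640833 (plus strand), *Ifit3* at chr19:34583353-34583436 (plus strand), *Ifit3b* at chr19:34607749-34607832 (plus strand), *Rsad2* at chr12:26456543-26456592 (minus strand), *Bst2* at chr8:71537567-71537622 (minus strand) and *Oas1a* at chr5:120907510-120907565 (minus strand). The others are *Irgm1* at chr11:48871415-48871470 (minus strand), *Gbp2* at chr3:142620584-142620633 (plus strand), *Ifi203* at chr1:173942498-173942547 (minus strand) and *Ifi211* at chr1:173913054-173913103 (minus strand). The nearest match began 14 bases before the gene start in *Oas1a*, 24 in *Irgm1*, 66 in *Isg15*, 85 in *Ifit1* and 124 in *Bst2*. The windows of *Ifit3* and *Ifit3b* are identical, and these near-identical copies may share reads, so their split is uncertain. A match is a description of the letters and not evidence that a factor bound there.

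After limits on genes, UMIs and mitochondrial share and the removal of called doublets, 4187 WT and 3391 KO cells were kept, with a median of 11106 and 12869 UMIs per cell (a UMI is a molecule tag that counts each captured transcript once). The libraries shared 9 cell barcodes of 5713 and 5285. Cells were clustered without the 136 genes studied here and named from markers, and each name carries "-like" because it was rebuilt from the counts. Of the 8 main classes 1 was left without a cell type name and is called *Gzma*-led after its first gene, because markers of NK and of T cells were both frequent in it. An order of classes or a highest class below is among these 8 unless other classes are named. *Lyve1* stood at 250 CPM (UMIs of the gene scaled to 1000000 UMIs of the same cells) in WT and 13.1 CPM in KO cells, and at 529 and 21.1 CPM in CCR2- macrophage-like cells, which fits the labels. In KO it was read at 2.89 to 22.9 CPM in every other main class, against at most 2.76 CPM in WT. Of the 10 markers of CCR2- macrophages, 10 in WT and 9 in KO were detected in at least 25% of those cells. The clusters were named from this same list and limit, so the count describes the class and is no independent check of its name. A low level of *Lyz2*, a myeloid gene, in lymphoid classes was taken as a floor. It was found in 6.07% to 8% of WT and 8.48% to 10.3% of KO B cell-like, T cell-like and *Gzma*-led cells. Its level there was 5.53 to 13.7 CPM, against 4517 to 21177 CPM in myeloid classes. The source of these UMIs was not tested. Differences are given as log2((KO CPM + 10)/(WT CPM + 10)), with 95% intervals that cover counting error only, and no test between genotypes is possible with 1 library each. The library chemistry reads 1 end of each molecule, so CPM is not divided by gene length. In pooled samples, a lower summed level can mean fewer expressing cells or less RNA per cell.

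By level, CCR2+ macrophage-like and monocyte-like cells stood highest among the 8 main classes in WT, and monocyte-like cells did in KO. The 42 members together took 4491 CPM of all UMIs in CCR2+ macrophage-like WT cells and 3806 CPM in those of KO. Monocyte-like cells stood at 4471 and 4836 CPM. CCR2- macrophage-like cells, named after the type that the paper calls tissue-resident, stood at 3007 and 2743 CPM, and *Gzma*-led cells at 2807 and 3891 CPM. Non-classical monocyte-like cells stood at 2119 and 2192 CPM, neutrophil-like cells at 1687 and 1477 CPM, B cell-like cells at 1250 and 1385 CPM and T cell-like cells at 893 and 1677 CPM. By number of molecules the order differed, because CCR2- macrophage-like cells were the most numerous (1239 WT and 559 KO cells) and among the deepest. They held 49.2% of all member UMIs in WT and 27.3% in KO, where monocyte-like cells held 20.2% and CCR2+ macrophage-like cells 14.6%. Low-depth clusters, left unnamed (854 WT and 550 KO cells), held 2.44% and 1.14%. Of the other unnamed classes, that led by *Sidt1* (98 and 144 cells) held 1.05% and 2.83% and that led by *Cd163l1*, with gamma-delta T cell receptor genes (53 and 51 cells), 0.644% and 0.979%.

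**Figure D1:**
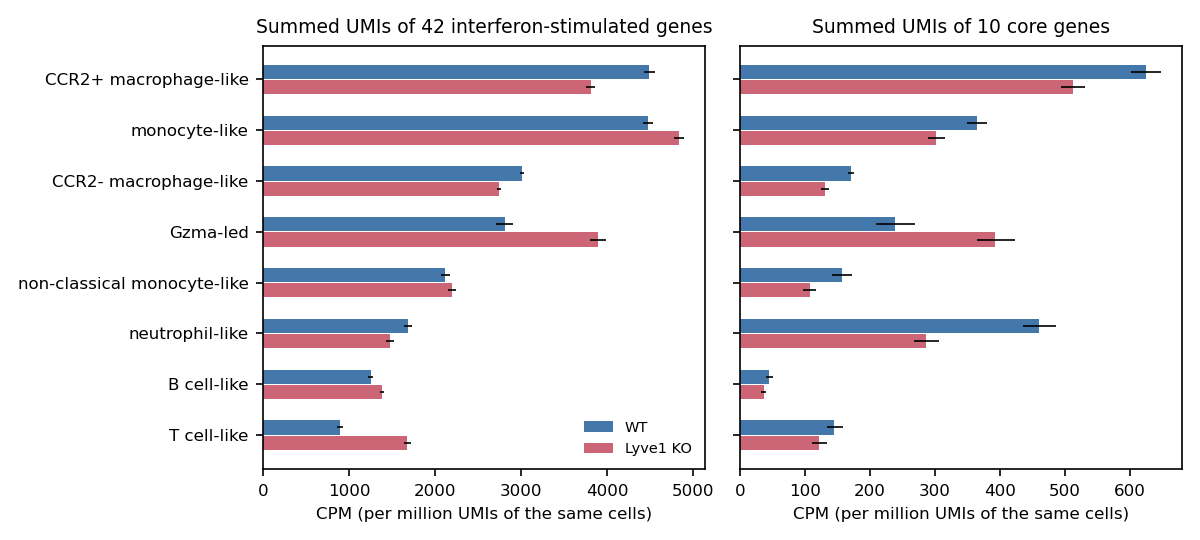
Summed level in CPM of the 42 members (left) and of the 10 core genes (right) in the 8 main classes of the WT (blue) and Lyve1 KO (red) library, with 95% Poisson intervals as lines. CCR2+ macrophage-like and monocyte-like cells stand highest in WT on the left, whereas neutrophil-like cells stand second in WT on the right, at 460 CPM.

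Over all kept cells the members took 2829 (WT) and 2597 CPM (KO) (log2 ratio -0.12, interval -0.13 to -0.11). The ratio was below 0 in CCR2- macrophage-like (-0.13, -0.15 to -0.12), CCR2+ macrophage-like (-0.24, -0.27 to -0.21) and neutrophil-like cells (-0.19, -0.25 to -0.13). It was above 0 in monocyte-like (0.11, 0.09 to 0.14), B cell-like (0.15, 0.11 to 0.19), *Gzma*-led (0.47, 0.41 to 0.53) and T cell-like cells (0.90, 0.84 to 0.96), and 0.05 (0.00 to 0.10) in non-classical monocyte-like cells. The overall value combined these classes in different proportions, and the mean over cells of each cell's own CPM gave a log2 ratio of -0.01. The median cell stood at 1608 (WT) and 1630 CPM (KO). *Ifi27l2a* and *Bst2* were the most abundant members, and without them the sum stood at 1918 and 1781 CPM (-0.11).

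A narrower set of 10 core genes (*Ifit1*, *Ifit2*, *Ifit3*, *Ifit3b*, *Isg15*, *Rsad2*, *Oasl1*, *Usp18*, *Cmpk2* and *Ifi44*), which are low in resting cells, gave a steeper order. CCR2+ macrophage-like cells stood at 625 (WT) and 513 CPM (KO), neutrophil-like cells at 460 and 286 CPM, monocyte-like cells at 364 and 302 CPM, *Gzma*-led cells at 238 and 393 CPM and CCR2- macrophage-like cells at 170 and 130 CPM. B cell-like cells stood lowest, at 44.1 and 35.7 CPM. The core level was lower in the KO library over all cells (255 and 192 CPM, -0.39, -0.42 to -0.36) and in 7 of the 8 main classes, from -0.23 in T cell-like cells to -0.67 in neutrophil-like cells (-0.79 to -0.55). *Gzma*-led cells were the exception, at 0.70 (0.50 to 0.91). These UMIs lay in few cells, and the intervals do not cover the spread between cells. Without the 5 cells of each library with the most core UMIs in a class, the core level of monocyte-like cells was 217 (WT) and 237 CPM (KO), so the sign turned, and that of T cell-like cells was 92.8 and 93.0 CPM. A single WT monocyte-like cell held 437 of the 2029 core UMIs of that class. The level without those cells was still lower in KO in both macrophage classes (146 and 102 CPM in the CCR2- and 385 and 308 CPM in the CCR2+ class), in non-classical monocyte-like (89.2 and 67.4 CPM), neutrophil-like (211 and 173 CPM) and B cell-like cells (36.2 and 28.3 CPM).

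Classes differed in which members they held. Among the 8 main classes in WT, 13 members were highest in monocyte-like cells, 12 in CCR2+ macrophage-like cells, 9 in *Gzma*-led cells, 7 in neutrophil-like cells and 1, *Bst2*, in CCR2- macrophage-like cells. In KO, the counts were 13 in monocyte-like, 11 in *Gzma*-led, 7 in CCR2+ macrophage-like, 6 in neutrophil-like and 2 (*Bst2* and *Phf11d*) in CCR2- macrophage-like cells, with *Gbp3* highest in B cell-like, *Ifi213* in T cell-like and *Parp14* in non-classical monocyte-like cells. The small and unnamed classes were then included, apart from low-depth clusters and the class led by *Actc1*. Conventional DC 1-like and mature DC-like cells were each the highest class of 8 members in WT and monocyte-like cells of 6. Each of these DC classes had only 21 WT cells. In the first, 1 cell held 547 of 990 core UMIs, and the second had a median of 2797 UMIs per cell. *Bst2* was highest in plasmacytoid DC-like cells, at 4054 (WT) and 4184 CPM (KO). At least 100 CPM in both libraries was reached by 12 members in monocyte-like and 11 in CCR2+ macrophage-like cells, but by 5 in CCR2- macrophage-like cells (*Bst2*, *Ifi203*, *Ifi204*, *Ifi27l2a* and *Lgals3bp*) and 1 in T cell-like cells (*Ifi27l2a*). Below 10 CPM in both libraries were 19 members in B cell-like, 16 in T cell-like, 11 in neutrophil-like and 7 in CCR2- macrophage-like cells, against 2 in the monocyte-like class (*Gbp5* and *Ifi44*) and 1, *Ifi44*, among CCR2+ macrophage-like cells. *Ifi44*, a microtubule-associated member, was the lowest of the list, with 98 UMIs in all.

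**Figure D2:**
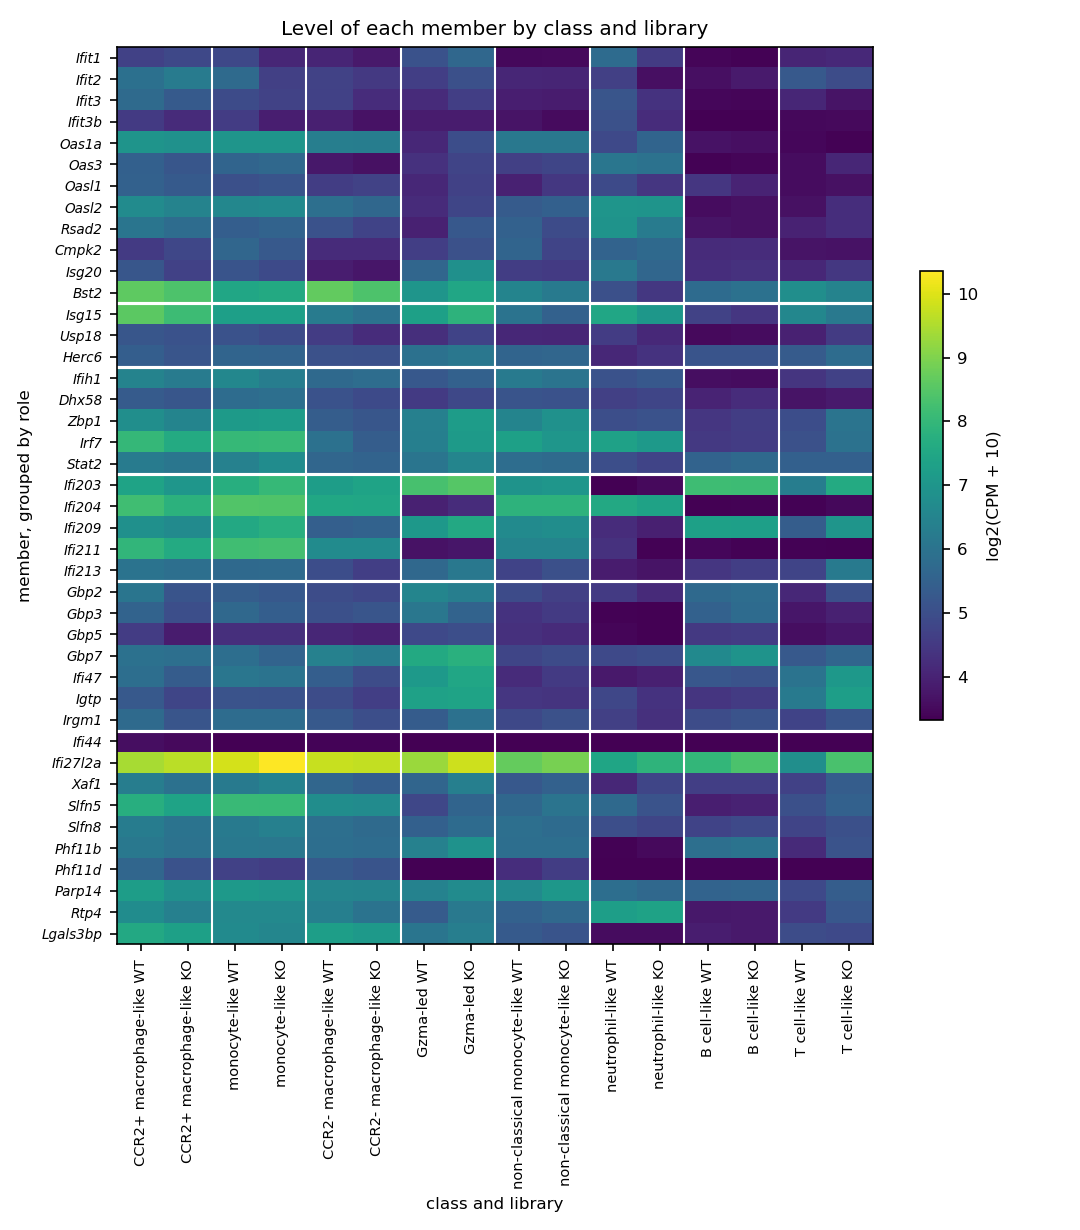
Level of each of the 42 members, as log2(CPM + 10), in the 8 main classes of each library, with members in rows grouped by role and a WT and a KO column for each class. *Ifi27l2a* is high in every class, and *Ifi204* and *Ifi211* are below 10 CPM in B cell-like, T cell-like and *Gzma*-led cells. The GTPases *Gbp7*, *Ifi47* and *Igtp* are highest in *Gzma*-led cells.

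Among the RNA-binding and antiviral effectors (12 measured members), the summed level was 539 (WT) and 413 CPM (KO) over all cells (-0.37), the largest difference of the 6 role groups. *Bst2* alone held 18004 of the group's 34182 UMIs in WT and 11537 of 23691 in KO, so this value and its rank rest largely on that gene. *Bst2*, which encodes tetherin, a membrane protein that holds budding virions on the cell, stood at 284 (WT) and 201 CPM (KO). It stood at 395 and 325 CPM in CCR2- macrophage-like, 381 and 324 in CCR2+ macrophage-like, 168 and 183 in monocyte-like and 79.9 and 64.2 in non-classical monocyte-like cells. It stood at 23.1 and 11.9 CPM in neutrophil-like, 45.0 and 51.8 in B cell-like, 100.6 and 78.0 in T cell-like and 116 and 168 in *Gzma*-led cells. The overall *Bst2* ratio of -0.48 was therefore further from 0 than that of either macrophage class (-0.28 and -0.23), while the class that held most of it made up 29.6% of WT and 16.5% of KO cells. *Ifit1*, which binds the cap of foreign RNA, was highest in WT neutrophil-like cells at 44.8 CPM, against 13.5 CPM in KO (-1.22, -1.55 to -0.88). *Ifit2*, an apoptosis-promoting relative, stood at 43.6 and 15.1 CPM in monocyte-like cells (-1.10, -1.33 to -0.86) but at 49.99 and 65.8 CPM in CCR2+ macrophage-like cells (0.34). *Ifit1* and *Ifit2* are core genes, whose UMIs lay in few cells of these classes, and the intervals do not cover the spread between cells. *Rsad2*, which encodes viperin, an enzyme that makes a chain-terminating nucleotide, stood at 111 and 66.4 CPM in neutrophil-like cells, its highest class. *Oasl2*, a member of the oligoadenylate synthetase family, stood at 118 and 116 CPM there and at 84.8 and 90.8 CPM in monocyte-like cells. *Isg20*, an RNA exonuclease, stood at 39.6 and 105 CPM in *Gzma*-led cells (1.21, 0.80 to 1.62).

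The ISGylation genes (*Isg15*, *Usp18* and *Herc6*) attach or remove the modifier ISG15 and took 163 (WT) and 134 CPM (KO) (-0.27). *Isg15* itself stood at 119 and 93.0 CPM over all cells and was highest of the 8 main classes in CCR2+ macrophage-like cells, at 370 and 270 CPM. The small ILC2-like class stood above these in WT, at 484 CPM, and the basophil or mast cell-like class in KO, at 390 CPM. These 2 values rest on few cells. Of the 48 WT ILC2-like cells, 1 held 154 of 571 core UMIs, and of the 15 KO basophil or mast cell-like cells, 1 held 67 of 82. *Isg15* stood at 168 and 122 CPM in neutrophil-like, 147 and 147 in monocyte-like, 149 and 225 in *Gzma*-led and 65.5 and 52.6 in CCR2- macrophage-like cells. It stood at 54.3 and 35.7 CPM in non-classical monocyte-like, 84.6 and 61.2 in T cell-like and 16.0 and 11.6 in B cell-like cells. *Isg15* was thus lower in KO in 6 of the 8 main classes, level in monocyte-like cells and higher in *Gzma*-led cells.

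The sensors and transcription factors (*Ifih1*, *Dhx58*, *Zbp1*, *Irf7* and *Stat2*) took 255 (WT) and 253 CPM (KO) (-0.02). *Irf7*, the factor that amplifies type I interferon production, stood at 94.8 and 89.99 CPM over all cells. It stood at 245 and 185 CPM in CCR2+ macrophage-like, 252 and 258 in monocyte-like, 149 and 119 in non-classical monocyte-like and 153 and 127 in neutrophil-like cells. It stood at 52.2 and 32.2 CPM in CCR2- macrophage-like (-0.56), 12.3 and 13.6 in B cell-like, 23.4 and 52.9 in T cell-like and 71.8 and 132 in *Gzma*-led cells. *Irf7* in CCR2- macrophage-like cells was the member with the ratio furthest from 0 in that class. *Zbp1*, a sensor of Z-form nucleic acids, stood at 132 and 138 CPM in monocyte-like cells and 21.8 and 55.4 CPM in T cell-like cells (1.04).

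The HIN-200 family, whose products bind DNA in the nucleus and cytosol, differed by lineage. *Ifi204* stood at 156 (WT) and 130 CPM (KO) over all cells, with 341 and 330 CPM in monocyte-like, 285 and 221 in CCR2+ macrophage-like, 223 and 223 in non-classical monocyte-like, 179 and 156 in neutrophil-like and 174 and 168 in CCR2- macrophage-like cells. In lymphoid classes it was nearly absent, at 0 and 0.336 CPM in B cell-like, 0.276 and 1.10 in T cell-like and 5.53 and 8.62 in *Gzma*-led cells. *Ifi211* followed it in macrophages and monocytes, at 105 and 90.7 CPM over all cells, 283 and 294 in monocyte-like, 238 and 185 in CCR2+ macrophage-like, 95.4 and 94.3 in CCR2- macrophage-like and 79.9 and 80.7 in non-classical monocyte-like cells. It stood at 9.94 and 0.33 CPM in neutrophil-like, 0.818 and 0.336 in B cell-like, 0.276 and 0 in T cell-like and 2.76 and 3.45 in *Gzma*-led cells. *Ifi203* was found in lymphoid and myeloid classes but not in neutrophils, with 276 and 273 CPM in B cell-like, 308 and 352 in *Gzma*-led and 68.4 and 186 in T cell-like cells and 0 and 1.32 CPM in neutrophil-like cells. It stood at 155 and 183 CPM over all cells, 141 and 160 in CCR2- macrophage-like, 159 and 118 in CCR2+ macrophage-like, 204 and 254 in monocyte-like and 111 and 119 in non-classical monocyte-like cells. *Ifi209* stood at 72.2 and 98.8 CPM over all cells, 181 and 206 in monocyte-like, 148 and 148 in B cell-like, 124 and 179 in *Gzma*-led and 32.3 and 118 in T cell-like cells. It stood at 105 and 92.9 CPM in CCR2+ macrophage-like, 33.7 and 36.5 in CCR2- macrophage-like, 93.9 and 99.0 in non-classical monocyte-like and 8.52 and 5.28 in neutrophil-like cells. The near-zero *Ifi204* and *Ifi211* values in B and T cell-like cells lie below those of *Lyz2* in the same classes. *Lyz2* stood far above both genes in myeloid classes, so its floor need not be theirs. The family together stood at 513 and 532 CPM (0.05).

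The interferon-inducible GTPases (*Gbp2*, *Gbp3*, *Gbp5*, *Gbp7*, *Ifi47*, *Igtp* and *Irgm1*), most of them strongly induced by interferon gamma, took 229 (WT) and 221.5 CPM (KO) (-0.05). *Gzma*-led cells stood highest of the 8 main classes, at 659 and 719 CPM. CCR2+ macrophage-like cells came next in WT, at 279 CPM, but stood at 177 CPM in KO (-0.63), below T cell-like (175 and 365 CPM), B cell-like (241 and 281 CPM) and monocyte-like cells (261 and 231 CPM). In that macrophage class *Gbp2* stood at 56.0 (WT) and 25.2 CPM (KO) (-0.91), the ratio furthest from 0 among its members. *Igtp* stood at 154 and 159 CPM in *Gzma*-led, 62.9 and 143 in T cell-like and at most 29.3 CPM in any other main class.

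The remaining 10 members took 1130 (WT) and 1044 CPM (KO) (-0.11), led by *Ifi27l2a*, a small mitochondrial protein and the most abundant member with 75087 UMIs (22.9% of all member UMIs, against 8.99% for *Bst2*). *Ifi27l2a* stood at 628 and 615 CPM over all cells, 860 and 832 in CCR2- macrophage-like, 683 and 786 in CCR2+ macrophage-like, 955 and 1299 in monocyte-like and 406 and 469 in non-classical monocyte-like cells. It stood at 164 and 227 CPM in neutrophil-like, 242 and 316 in B cell-like, 100.9 and 313 in T cell-like and 620 and 893 in *Gzma*-led cells. It was higher in KO in 7 of the 8 main classes and lower only in CCR2- macrophage-like cells (-0.05), and the overall ratio was -0.03. *Slfn5*, a schlafen family member, stood at 107 and 92.7 CPM over all cells, 261 and 258 in monocyte-like, 204 and 160 in CCR2+ macrophage-like and 99.9 and 94.7 in CCR2- macrophage-like cells. It stood at 40.7 and 54.7 CPM in non-classical monocyte-like, 42.97 and 25.1 in neutrophil-like, 5.07 and 5.94 in B cell-like, 23.2 and 35.3 in T cell-like and 18.4 and 37.9 in *Gzma*-led cells. *Lgals3bp*, a secreted galectin-binding protein, was macrophage-weighted, with 100.9 and 72.1 CPM over all cells, 180 and 149 in CCR2+ macrophage-like, 143 and 127 in CCR2- macrophage-like and 92.7 and 84.0 in monocyte-like cells. It stood at 29.5 and 25.3 CPM in non-classical monocyte-like, 56.2 and 70.7 in *Gzma*-led, 21.0 and 19.3 in T cell-like, 4.74 and 3.93 in B cell-like and 1.78 and 1.65 in neutrophil-like cells.

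The difference between the libraries was small for single members in the macrophage classes. Among members with at least 100 UMIs over both libraries in a class, none of 41 in the CCR2- macrophage-like and none of 40 in the CCR2+ macrophage-like class reached a 2-fold difference (log2 ratio of at least 1 in size). The share of all genes that did was 0.333% higher and 0.117% lower in KO in the first class, and 0.27% and 0.205% in the second, so a count of 0 is what that background gives. Below 0 lay 35 of 41 members in CCR2- macrophage-like cells, against 67.9% of all genes tested there, with a median of -0.15 for members and -0.06 for all genes. In CCR2+ macrophage-like cells 36 of 40 members lay below 0, against 53.5% of all genes, with medians of -0.28 and -0.02. The interval lay wholly below 0 for 26 and wholly above 0 for 2 members in the first class, and for 28 and 3 in the second. The share of all genes with such intervals was not counted, so these interval counts have no background and are no result about the members. These counts describe 2 libraries, and genes of 1 response are not independent of each other. Over all kept cells, none of 41 members reached the limit (background 0.195% higher and 0.188% lower), 29 lay below 0 (55.1% of all genes) and the medians were -0.13 and -0.01.

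In monocyte-like cells the members were centred on 0. *Ifit2* was the 1 member of 41 lower by the limit and none was higher (background 0.287% lower and 0.0375% higher), 24 lay below 0 (49.2% of all genes) and the medians were -0.01 for members and 0.00 for all genes. In non-classical monocyte-like cells none of 29 reached the limit (0.159% higher, 0.289% lower), 12 lay below 0 (48.6%) and both medians were 0.01. In neutrophil-like cells *Ifit1* was the 1 member of 21 lower by the limit and none was higher (0.654% lower, 0.274% higher), 14 lay below 0 (51.7%) and the medians were -0.19 and -0.01. In B cell-like cells none of 25 reached it (0.332% in either direction), 6 lay below 0 (52.9%) and the medians were 0.11 and -0.01. In *Gzma*-led cells *Isg20* was the 1 member of 23 higher and none was lower (0.618% higher, 0.441% lower), 2 lay below 0 (*Gbp2* and *Gbp3*, against 52.8% of all genes) and the medians were 0.47 and -0.02. No member passed the limit in more than 1 of the classes.

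**Figure D3:**
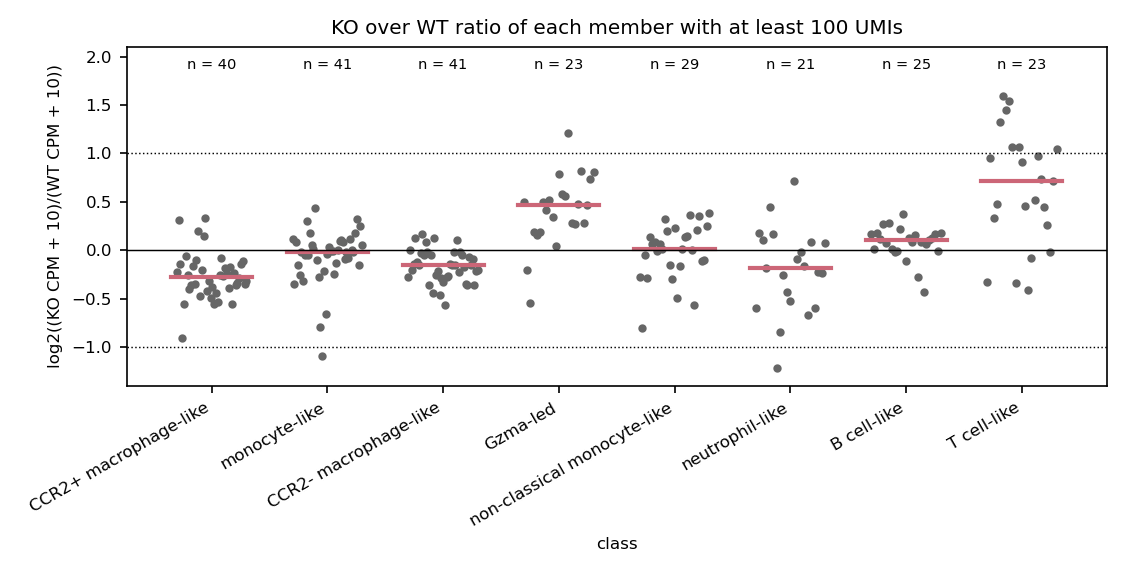
Log2 ratio KO over WT, on the log2((KO CPM + 10)/(WT CPM + 10)) scale, of each member with at least 100 UMIs in a class (points, n above), with the median as a red bar and the 2-fold limit dotted. The medians run from -0.28 in CCR2+ macrophage-like cells to 0.71 in T cell-like cells, where 7 points lie above the upper limit.

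T cell-like cells were the 1 main class with several members past the limit. *Ifi213*, *Ifi209*, *Ifi203*, *Zbp1*, *Ifi47*, *Igtp* and *Ifi27l2a* (7 of 23) were at least 2-fold higher in KO, against 2.35% of all genes tested there, and none was lower (1.45%). Below 0 lay 5 members (60.3% of all genes), and the medians were 0.71 for members and -0.09 for all genes. This class held 2 clusters in different proportions. The cluster led by *Dapl1* and *Lef1*, genes of naive T cells, had 79 WT and 173 KO cells, and the cluster led by *Arpp21*, *Dntt* and *Rag1*, genes of developing lymphocytes, had 136 WT and 68 KO cells. The members took 2629 (WT) and 2490 CPM (KO) within the first cluster (-0.08, -0.15 to 0.00) and 418 and 495 CPM within the second (0.24), so the class ratio of 0.90 was not seen inside either. Within the first, 1 of 21 members tested passed the limit, against 0.838% of all genes in either direction. This was *Isg15*, lower in KO at 145 and 65.1 CPM (-1.04). *Ifi27l2a* stood at 449 and 508 CPM there (0.18), *Ifi203* at 255 and 294 CPM and *Ifi209* at 144 and 194 CPM (0.41). Within the second, *Igtp* was the 1 of 6 that passed it, at 19.3 and 55.5 CPM (1.16), against 0.992% of all genes.

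*Gzma*-led cells numbered 75 in WT and 97 in KO, and *Ccl5*, *Ctla4* and *Gzmb* were next among their leading genes. Of 8 NK cell markers, 7 in WT and 6 in KO were detected in at least 25% of these cells, the most frequent being *Nkg7*, in 69.3% and 57.7%. *Cd3e*, which encodes a T cell receptor component, was detected in 61.3% of them in WT and 72.2% in KO, so most of these cells held a T cell marker. The effectors stood at 261 (WT) and 480 CPM (KO) (0.86), the sensors and transcription factors at 244 and 406 CPM (0.71) and the GTPases at 659 and 719 CPM (0.12). Without the 5 cells of each library that held the most core UMIs, the member ratio was 0.29 in place of 0.47.

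In neutrophil-like cells the ratio rested on few cells. Without the 5 cells of each library with the most core UMIs the member ratio was 0.04 in place of -0.19, and with called doublets kept it was 0.01. The cluster led by *Acod1* and *Il1rn*, genes of activated neutrophils, had 73 WT and 45 KO cells and stood at 3380 and 2714 CPM (-0.32). The cluster led by *Stfa1* (253 and 262 cells) stood at 1550 and 1502 CPM (-0.04), and the cluster led by *Ngp* and *Camp*, granule genes of immature neutrophils (22 and 28 cells), at 553 and 845 CPM (0.60). Within CCR2- macrophage-like cells, the cluster led by *Ccl8*, *Lyve1* and *Fcna* (194 and 131 cells) stood at 4172 and 3594 CPM (-0.21) and that led by *Cd207* and *Vsig4* (69 and 18 cells) at 4085 and 2758 CPM. The cluster led by *Olfml3* (403 and 154 cells) stood at 2685 and 2591 CPM, so the spread between clusters of the class exceeded the difference between the libraries. In monocyte-like cells, the cluster led by *Gm9733* and *Plac8* stood at 5105 and 5085 CPM and that led by *S100a8* at 4085 and 4659 CPM (0.19).

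Few cells carried the core genes. To compare cells of different depth, each was thinned at random to 3000 UMIs, which left 3125 WT and 2683 KO cells and left out 1062 and 708 shallower ones. At that depth 74.9% of WT and 77.7% of KO cells held no core UMI, and 17.8% and 16.3% held UMIs of a single core gene. The 5% of cells with the most core UMIs held 65.9% of all core UMIs in WT and 65.5% in KO, whereas the 5% with the most member UMIs held 27.7% and 25.6% of the member UMIs. The variance over the mean of core UMIs per cell, which is 1 for counting noise alone, was 16.3 and 13.6, and that of member UMIs 15.9 and 12.97. For the core it was 38.6 and 18.0 in neutrophil-like cells, 16.4 and 30.2 in CCR2+ macrophage-like and 18.1 and 5.01 in monocyte-like cells. CCR2- macrophage-like cells had 6.40 and 3.25 (8.89 and 6.19 for the members), and B cell-like cells had 2.04 and 1.91. At full depth, 72 of 4187 WT cells and 78 of 3391 KO cells held 50% of the core UMIs. In CCR2+ macrophage-like cells 7 of 188 and 7 of 186 cells held that share, and in neutrophil-like cells 5 of 348 and 8 of 335. By the share that the top cells held, the core was thus more concentrated than the whole list, whereas the variance over the mean was similar over all cells. Both measures depend on the mean per cell, which was 0.811 (WT) and 0.619 (KO) UMIs for the core. For the members it was 7.95 and 7.51 at 3000 UMIs per cell. The core and the list were not compared at an equal mean, so neither measure settles which was the more uneven.

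Pooled over all classes, core genes were found together. Of the cells with an *Ifit1* UMI at 3000 UMIs (59 WT and 41 KO), 72.9% and 65.9% also held *Isg15*, against 14.4% and 11.2% of the cells without. *Rsad2* was in 50.8% and 31.7% of them against 3.49% and 3.596%, and *Ifit3* or *Ifit3b* in 47.5% and 26.8% against 2.90% and 2.20%. Pooling mixes classes of different core level, and within a class few cells held *Ifit1*. In KO, *Isg15* was in 6 of 8 such neutrophil-like cells (75%, against 7.47% without). It was in 1 of 4 such KO monocyte-like cells (25%, against 26.2%). For CCR2+ and CCR2- macrophage-like KO cells it was 6 of 7 (85.7%, against 25.9%) and 4 of 7 (57.1%, against 8.51%). In WT it was in 12 of 15 neutrophil-like (80%, against 11.2%) and 10 of 14 CCR2- macrophage-like cells (71.4%, against 11.4%). CCR2+ macrophage-like WT cells had 6 of 6 (100%, against 34.1%) and monocyte-like ones 3 of 4 (75%, against 27.9%). Among B cell-like WT cells it was in 0 of 2. No immune class is known to lack these genes entirely, so no class gives their background directly.

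A cell with at least 3 of the 9 distinct core genes (*Ifit3* and *Ifit3b* counted as 1) at 3000 UMIs was called a carrier. In WT 97 of 3125 cells (3.10%, 95% Clopper-Pearson interval 2.52 to 3.77) and in KO 63 of 2683 (2.35%, 1.81 to 2.99) were carriers, a difference of -0.76 percentage points (-1.60 to 0.09, counting error of these 2 libraries only). At 5800 UMIs per cell the shares were 5.68% (158 of 2782) and 4.35% (107 of 2462). CCR2+ macrophage-like cells had the highest share of the main classes, at 9.66% in WT (17 of 176, 5.73 to 15.0) and 8.29% in KO (15 of 181). Monocyte-like cells had 4.64% (11 of 237) and 6.22% (15 of 241), neutrophil-like cells 4.88% (16 of 328) and 2.53% (8 of 316), *Gzma*-led cells 4.55% (3 of 66) and 5.56% (5 of 90) and CCR2- macrophage-like cells 2.68% (32 of 1196) and 1.91% (10 of 524). B cell-like cells had 0 of 374 in WT (upper limit 0.981%) and 2 of 463 in KO, T cell-like cells 1 of 157 and 2 of 225, and non-classical monocyte-like cells 1 of 215 and 1 of 279. By number, 33.0% of WT carriers were CCR2- macrophage-like, 17.5% CCR2+ macrophage-like, 16.5% neutrophil-like and 11.3% monocyte-like, and in KO the shares were 15.9%, 23.8%, 12.7% and 23.8%. Carriers held 51.7% of the core UMIs in WT and 47.6% in KO, and 19.2% and 14.9% of all member UMIs. The choice of carriers on core genes in the same thinned counts raises these shares, so they only describe the carriers.

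**Figure D4:**
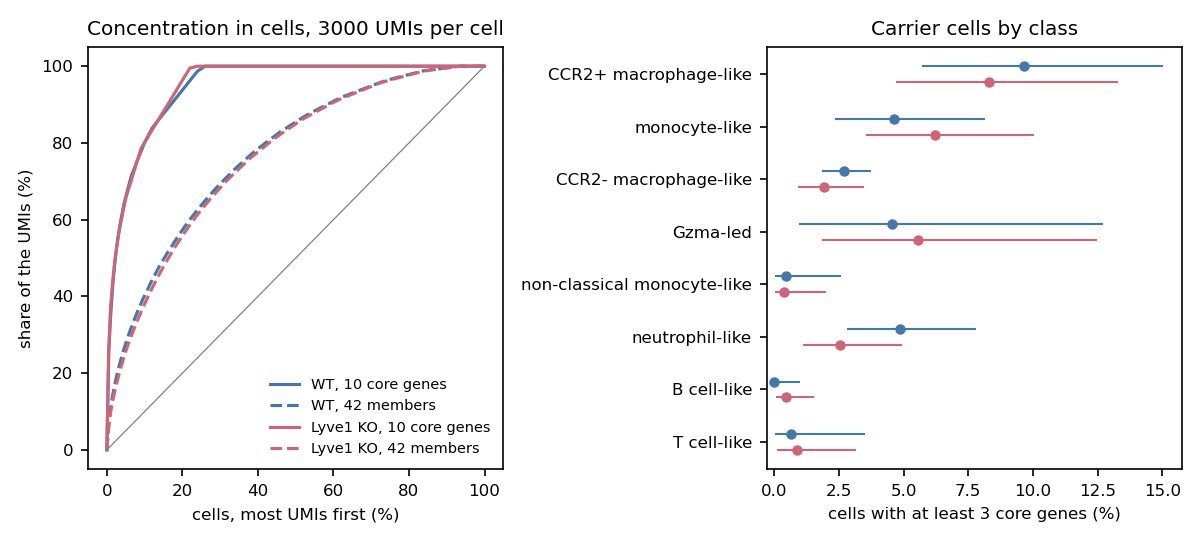
Left, the share of UMIs held by the cells with the most, for the 10 core genes (solid) and the 42 members (dashed) at 3000 UMIs per cell in WT (blue) and Lyve1 KO (red), with the diagonal for an even spread. Right, the percentage of carrier cells by class with 95% Clopper-Pearson intervals in the same colours. The core curves reach 80.1% at 10% of the cells in both libraries, and CCR2+ macrophage-like cells stand highest on the right, at 9.66% and 8.29%.

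Carriers were chosen on the core genes, so only the other members and the interferon-stimulated genes outside the list describe them further, within each library and class and with no test. In CCR2+ macrophage-like cells all 31 non-core members tested in WT and all 30 in KO were at least 2-fold higher in carriers than in other cells, against 3.92% and 4.13% of all genes, with medians of 2.33 and 2.77. In CCR2- macrophage-like cells 31 of 32 in WT and 26 of 29 in KO were (1.45% and 2.16% of all genes, medians 2.16 and 1.57). In monocyte-like cells 29 of 30 in WT and 26 of 30 in KO were (2.73% and 1.64%, medians 1.64 and 1.42). In WT neutrophil-like cells only 9 of the 32 non-core members passed the minimum, and all 9 were (4.66%, median 3.22). Members that passed the minimum only through the carriers stay in these counts and medians. A high level in carriers thus helps a member to be counted, so the counts only describe the carriers. *Irf7* stood at 1552 CPM in carriers and 110 CPM in other cells of the WT CCR2+ macrophage-like class (3.70), and at 1503 and 85.8 CPM in KO (3.98). *Slfn5* stood at 689 and 13.96 CPM in WT neutrophil-like cells, where it passed the minimum only through the carriers. *Ifi27l2a* was an exception in CCR2- macrophage-like cells, at 2302 CPM in carriers and 819 CPM in others in WT (1.48) but 714 and 837 CPM in KO (-0.23, -0.46 to 0.00, with 10 carriers). Of the interferon-stimulated genes outside the list, 27 of 30 in WT and 29 of 31 in KO were at least 2-fold higher in carriers of the CCR2+ macrophage-like class, and 29 of 37 and 18 of 31 in carriers of the CCR2- class. In monocyte-like cells the counts were 19 of 27 and 18 of 29, and in WT neutrophil-like cells 11 of 15. *Cxcl10*, a chemokine that draws T and NK cells, stood at 448 CPM in carriers and 15.5 CPM in other KO CCR2+ macrophage-like cells. In WT monocyte-like cells it stood at 474 and 2.07 CPM. In both it passed the UMI minimum only through the carriers. These levels, and the counts that hold such genes, are a description and no support.

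The share of female cells differed between carriers and other cells. Cells were called female when they held *Xist* but no Y-linked UMI, and male in the reverse case. Left untyped were 1097 WT and 930 KO cells with neither and 71 and 43 with both. Of the 348 WT neutrophil-like cells, 26 were typed female and 147 male, and of the 335 in KO, 35 and 110. Values by sex describe typed cells only. The labels give no sex, and the number of female and male hearts in each pool is unknown. Among typed cells, 58.1% of CCR2- macrophage-like carriers (18 of 31) and 27.3% of the other cells of that class were female in WT, and 62.5% (5 of only 8) and 44.6% in KO. In CCR2+ macrophage-like cells the values were 80.0% (12 of 15) and 35.9% in WT and 60.0% (9 of 15) and 33.6% in KO. Over all cells, 6.36% of female (55 of 865, 4.83 to 8.196) and 1.27% of male WT cells (23 of 1814, 0.805 to 1.90) were carriers, against 3.01% (27 of 898) and 1.80% (24 of 1334) in KO.

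Over all cells, female cells also stood higher for the list as a whole, more so in WT. The members took 4047 CPM in female and 2171 CPM in male WT cells (log2 ratio female over male 0.90), and 3000.5 and 2369 CPM in KO (0.34). In CCR2- macrophage-like cells the levels were 4440 and 2327 CPM in WT (0.93) and 3157 and 2447 CPM in KO (0.37), and the median cell stood at 3262 and 1787 CPM in WT and at 2249 and 2086 CPM in KO. In that class 7 of 41 members (*Zbp1*, *Isg15*, *Oasl2*, *Oasl1*, *Irf7*, *Ifi27l2a* and *Ifit2*) were at least 2-fold higher in female WT cells, against 0.162% of all genes, and all 41 lay above 0 (medians 0.64 for members and 0.00 for all genes). In KO 1 of 36 (*Rsad2*) was, against 0.264% of all genes, and 31 lay above 0 (medians 0.24 and 0.05). *Ifi27l2a* stood at 1414 CPM in female and 600 CPM in male WT cells of the class, and at 1059 and 646 CPM in KO. Female cells made up 34.2% of typed WT and 40.8% of typed KO cells, 28.6% and 45.4% of CCR2- macrophage-like cells and 70.1% and 27.0% of T cell-like cells. In T cell-like cells the order was reversed in WT, at 714 CPM in female and 1392 CPM in male cells (-0.95), against 2192 and 1416 CPM in KO (0.63). This class mixed the high cluster led by *Dapl1* (79 WT and 173 KO cells) with the low cluster led by *Arpp21* (136 and 68 cells). The sexes were not compared within either cluster, so its values by sex may follow that mix, which was not tested. In KO, female cells stood lower among non-classical monocyte-like cells, at 2122 and 2265 CPM (-0.093, -0.15 to -0.032), and the intervals of neutrophil-like (0.056) and B cell-like cells (0.040) held 0. Cells of 1 sex in a pool come from a subset of its 5 hearts, so sex and heart cannot be told apart.

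Split by sex, the member ratio between the libraries took opposite signs in 5 of the 8 main classes. Over all cells it was -0.43 in female and 0.13 in male cells, and it was -0.49 and 0.07 for the CCR2- macrophage-like class. For the CCR2+ class it was -0.55 and 0.26, in non-classical monocyte-like cells -0.59 and 0.48, in neutrophil-like cells -0.82 and 0.38 and in monocyte-like cells -0.07 and 0.29. The female neutrophil-like value came from only 26 WT and 35 KO cells, and a single WT neutrophil-like cell held 315 of the 1295 core UMIs of that class. The female and the male ratio were both above 0 in *Gzma*-led (0.38 in female and 0.49 in male) and T cell-like cells (1.60 and 0.02, the latter with an interval that held 0). In B cell-like cells they were -0.0092, with an interval that held 0, and 0.17. The T cell-like ratios mix clusters of different level whose proportions differed between the libraries. The lower level of the KO library over all cells and in both macrophage classes was thus held by female cells, and the male cells of KO stood above those of WT. For the core genes the male ratio was below 0 as well over all cells (-0.11) and in the CCR2- macrophage-like class (-0.26). The part of single hearts in these values was not tested, because the tables do not assign cells to hearts.

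**Figure D5:**
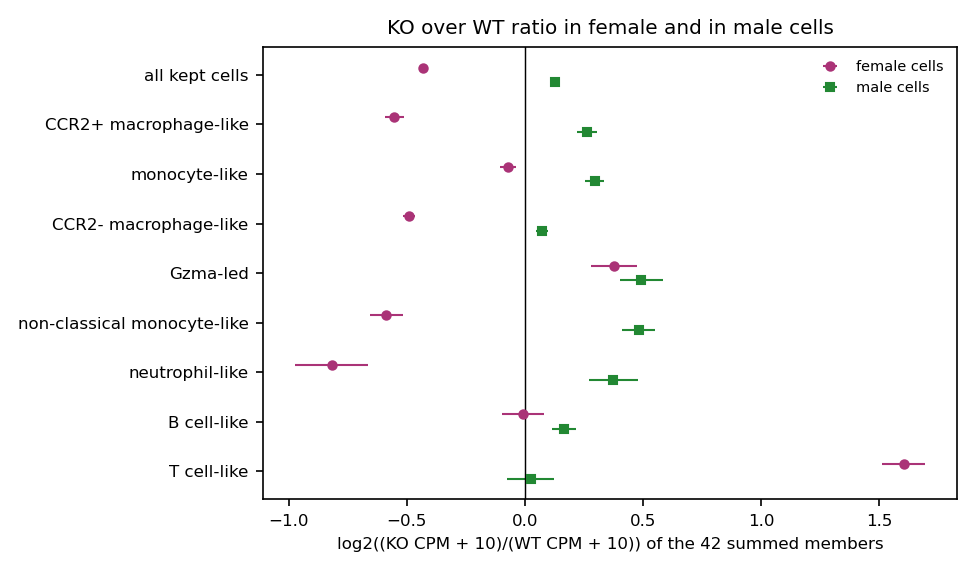
Log2 ratio KO over WT of the summed members, on the log2((KO CPM + 10)/(WT CPM + 10)) scale, by class in female cells (purple circles) and male cells (green squares) with 95% counting intervals. In all kept cells and the macrophage and monocyte classes the female values lie below 0 (from -0.59 to -0.07) and the male values above it (from 0.07 to 0.48).

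The genes upstream of the response were read in the same way. Of 21 interferon ligand genes, 15 had no UMI in either library (13 interferon alpha genes, *Ifnl2* and *Ifnl3*), which allows up to 0.0473 (WT) and 0.0523 CPM (KO) (3 counts). *Ifnab*, *Ifne*, *Ifnk* and *Ifnz* had at most 10 UMIs per library. *Ifnb1*, which encodes interferon beta, had 34 UMIs in 3 WT cells, of which 26 lay in 2 monocyte-like cells, and the other 8 lay in 1 CCR2- macrophage-like cell, and 0 in KO. *Ifng*, which encodes interferon gamma, stood at 2.62 CPM in WT (166 UMIs in 31 cells) and 4.06 CPM in KO (233 UMIs in 45 cells). *Gzma*-led cells held most of it in WT, at 145 CPM (158 UMIs in 23 cells), and stood at 80.4 CPM (140 UMIs in 25 cells) in KO, where an unnamed class led by *Sidt1* held a further 77 UMIs in 8 cells.

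The 6 receptor genes were expressed in both libraries, and none passed the 2-fold limit over all cells, where 5 of the 6 lay below 0 (55.1% of all genes did) and the median ratio was -0.12. *Ifnar1* and *Ifnar2*, the type I receptor chains, stood at 97.1 and 92.6 CPM and at 212 and 185 CPM. *Ifngr1* and *Ifngr2*, those of interferon gamma, stood at 335 and 363 CPM and at 153 and 134 CPM. *Ifnlr1*, the chain specific to type III interferons, was low, at 1.76 and 1.52 CPM, and *Il10rb*, its partner, stood at 169 and 125 CPM (-0.41). Among 11 signalling genes 5 lay below 0 (median 0.01): *Jak1* stood at 299 and 330 CPM, *Jak2* at 68.4 and 85.0 CPM (0.28), *Tyk2* at 29.4 and 29.5 CPM, *Irf9* at 55.5 and 53.2 CPM and *Socs1*, a feedback inhibitor, at 26.1 and 16.0 CPM (-0.48). Of 7 nucleic acid sensor genes tested 5 lay below 0 (median -0.08), which is near that share of all genes, and none passed the limit, against 0.195% of all genes higher and 0.188% lower (*Mb21d1* was not analysed here).

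Of 39 interferon-stimulated genes outside the list that were tested over all cells (*Mx2* was not analysed here), 15 lay below 0, against 55.1% of all genes. None passed the limit (0.195% of all genes higher, 0.188% lower). The median was 0.04, so this second list was centred near 0 where the 42 members were at -0.13. *Ifitm3*, which blocks viral fusion, stood at 943 and 1017 CPM, *Ifi207* at 308 and 229 CPM (-0.41) and *Cxcl10* at 56.5 and 39.7 CPM. In CCR2- macrophage-like cells 29 of 37 lay below 0 (median -0.13, against 67.9% of all genes), and in CCR2+ macrophage-like cells 31 of 36 did (median -0.26, against 53.5%). *Cxcl9*, a relative of *Cxcl10*, was the 1 gene past the limit in the CCR2+ class, lower in KO (0.205% of all genes). In the macrophage classes the second list thus had medians close to those of the members, -0.15 and -0.28. In non-classical monocyte-like cells *Cxcl10* was past the limit and higher in KO (0.159% of all genes). In T cell-like cells *Sp100*, *Ifi214*, *Ifi208*, *Irgm2*, *Slfn2*, *Slfn1* and *Ly6a* (7 of 28) and the signalling gene *Socs3* were higher and *Socs1* was lower. The shares of all genes were 2.35% higher and 1.45% lower in this class, whose clusters differed in proportion. In *Gzma*-led cells *Ifitm3* was higher (0.618% of all genes) and *Cxcl10* and *Irf8* lower by the limit (0.441%). None of these lists had a gene past it in monocyte-like, neutrophil-like or B cell-like cells, where at most 0.654% of all genes were in a direction. *Ms4a4c*, which stands both in this second list and among the monocyte markers, does not enter the counts of members.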

How the data were processed

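CD45+ cells of both libraries were captured with 10x 5' chemistry. Per the labels' processing notes and the matrix header, the authors made the deposited counts (whole UMIs per gene and cell barcode, not normalised) with Cell Ranger 8.0.1 on mm10. The study assigned cells to hearts from read variants, which these tables do not hold.

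Barcodes with at least 500 genes, 250 UMIs and at most 30% mitochondrial UMIs were kept, which left out 601 WT and 874 KO barcodes over the mitochondrial limit, and doublets were called at 0.4% per 1000 barcodes (98 WT and 73 KO removed). Library totals were 67968938 and 61555917 UMIs. Cells were clustered in Seurat 5.3.0 (R 4.3.3) with 2000 variable genes, 30 dimensions, 20 neighbours and resolution 0.8, without 136 features (members, pathway and sex-linked genes), and a name needed 3 markers in 25% of cells. Clusters of low depth or without such markers stayed unnamed. So did clusters nearest to a non-immune list, and those whose leading genes held more markers of another list than of the nearest. The *Gzma*-led cluster met the rule for NK cells but was left unnamed once its *Cd3e* share was seen. Leaving out the 5 top core cells was also chosen after seeing the data. UMIs were summed per class and library and divided by all UMIs of those cells (CPM), with a pseudocount of 10 CPM in ratios and a minimum of 100 UMIs per gene for counts past 2-fold (Python 3.11.15, scanpy 1.11.5, scipy 1.17.1). Intervals are 95% Poisson, Clopper-Pearson or Newcombe and cover counting error only. Carriers were called at 3000 UMIs per cell. Scripts were tested on simulated data.

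The members, lists and tests were chosen with earlier results of these data known. Given in full were the 10 members with the most UMIs, any member past the limit with 1 sign in at least 2 classes (none was), and *Lyve1*. Genes named beyond these are examples of their group or were chosen after their values were seen. *Mx1*, *Mx2* and *Mb21d1* were not analysed here. The values of 1 signalling gene are not reported here.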

Additional observations from a re-analysis of the deposited data

Results flagged for a closer look

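With the cells of each class split by sex, the KO over WT log2 ratio of the summed members or of the core genes had opposite signs in female and male cells in several classes, with counting intervals on opposite sides of 0. For the members it was -0.43 in female and 0.13 in male cells over all kept cells, -0.49 and 0.072 for the CCR2- macrophage-like class, -0.55 and 0.26 for the CCR2+ one, -0.072 and 0.29 in monocyte-like cells, -0.59 and 0.48 in non-classical monocyte-like cells and -0.82 and 0.38 in neutrophil-like cells. For the core genes it was -2.22 and 0.47 in neutrophil-like cells. In T cell-like cells it was 0.58 and -1.03, so the signs were the other way round. The female neutrophil-like cells numbered 26 in WT and 35 in KO, with 360 and 108 core UMIs. A single WT neutrophil-like cell held 315 of the 1295 core UMIs of that class. The T cell-like class mixed clusters whose proportions differed between the libraries, and the sexes were not compared within a cluster. The difference between the sexes was not tested, because each genotype was 1 pool, and sex and heart cannot be told apart.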

How the results depend on the processing

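Values are log2 ratios KO over WT unless named. Over all kept cells (-0.12), the ratio was -0.10 scaled without mitochondrial and ribosomal protein genes, -0.0087 as a mean over cells, -0.39 for the core, -0.15 without *Ifi27l2a*, -0.43 in female and 0.13 in male cells. In CCR2- macrophage-like cells (-0.13), it was -0.11 with limits of 1000 genes and 10% mitochondrial UMIs, -0.15 with doublets kept, -0.061 as a mean over cells, -0.36 for the core, -0.17 without *Ifi27l2a*, -0.49 and 0.072 by sex, -0.10 with all variable genes and -0.16 without cell-cycle regression. In neutrophil-like cells (-0.19), it was 0.011 with doublets kept, -0.67 for the core, -0.28 without the top member, -0.82 and 0.38 by sex and 0.045 without the 5 top core cells. In alternatives chosen after seeing the data, the T cell-like ratio (0.90) was -0.078 and 0.24 in its 2 clusters alone, with 1 member past the limit in each in place of 7, and the *Gzma*-led ratio (0.47) was 0.29 without the 5 top core cells. The 5-cell alternative for neutrophil-like cells was also chosen after seeing the data. Carriers (3.10% in WT, 2.35% in KO) were 7.23% and 6.001% with 2 core genes, 1.18% and 0.708% with 5, 5.68% and 4.35% at 5800 UMIs, 9.86% and 9.94% without thinning, 6.36% and 3.01% in female and 1.27% and 1.80% in male cells. The core share of the top 5% of cells (65.9% and 65.5%) was 34.8% and 37.4% for the top 1%, 80.1% in both for the top 10%, 27.7% and 25.6% for all 42 members, 69.8% in WT without thinning and 61.8% in KO at 5800 UMIs. Of 68 alternatives, 22 gave the same result, 40 moved and 6 reversed, and the cause was not tested. Members past the limit in CCR2- macrophage-like cells stayed at 0 under the alternatives run. No paired analysis was possible because each genotype was 1 pooled library and no test was made. With 1 library per genotype, heart, sex, library and genotype cannot be told apart, and depth limits the lowest members.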

Other observations

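Small named classes held extremes of the list. Plasmacytoid DC-like cells (16 WT and 11 KO), the professional producers of type I interferon, stood at 6012 (WT) and 5831 CPM (KO), of which *Bst2* was 67.4% and 71.8%, and their core level was 58.9 and 33.9 CPM. Conventional DC 1-like cells (21 and 25) stood at 4980 and 2284 CPM, with core levels of 1205 and 199.98 CPM. In WT 1 of these cells held 547 of the 990 core UMIs of the class, and in KO 1 cell held 174 of 228. ILC2-like cells (48 and 54), innate lymphocytes that make type 2 cytokines, stood at 1736 and 865 CPM with core levels of 597 and 115 CPM, and 4 WT and 5 KO cells held 50% of the core UMIs. Mature DC-like cells (21 and 5), dendritic cells that migrate to lymph nodes, stood at 3437 and 1139 CPM with core levels of 576 and 55.3 CPM, at a median of 2797 UMIs per cell in WT and 45853 in KO. Basophil or mast cell-like cells (30 and 15) stood at 1056 and 944 CPM with core levels of 480 and 405 CPM. A single cell held 69 of the 153 core UMIs of this class in WT and 67 of 82 in KO. The unnamed class led by *Cd209a* (40 and 37 cells) stood at 3725 and 1921 CPM with core levels of 612 and 119 CPM. In each of these classes the WT value was the higher, and with so few cells the values describe those cells. Unnamed classes outside these went both ways. Members stood higher in KO in those led by *Sidt1* (1861 and 2168 CPM) and *Actc1* (60.5 and 2623 CPM, 9 and 7 cells). They stood higher in WT in those led by *Cd163l1* (2069 and 1898 CPM) and *Fabp4* (1876 and 1651 CPM) and in low-depth clusters (2788 and 2266 CPM).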
